A study of Mus musculus with 16 samples.

Results

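Apoa1, Tm6sf2, Pla2g12b, Surf4 and Creb3l3 are 5 genes that act in the assembly and export of chylomicrons. They were chosen by gene name from the 2438 genes of a deposited table of duodenal RNA sequencing, and all 5 names were found. The table compared mice whose intestinal epithelium lacked Ephb4 (KO, the Ephb4-IKO mice of the labels, 7 libraries) with mice homozygous for the floxed Ephb4 allele (flox, fl/fl, 9 libraries). EphB4 is a receptor tyrosine kinase that binds ephrin-B2. All mice were 8 weeks old when a high fat diet of 19 weeks began, so the control group was on the high fat diet too, and no group on another diet was used here. The labels call the sample duodenal epithelium, whereas the design text names proximal small intestine. Which Cre line removed Ephb4 is not given in the sources. The study's question, as its title gives it, was what loss of EphB4 in the intestinal epithelium does in diet-induced obesity. The comparison below shows how these 5 transcripts differed between the groups, how they varied from library to library, and how they moved with each other.

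Enterocytes rebuild triglyceride from absorbed fat in the endoplasmic reticulum (ER) and load it onto apolipoprotein B, with the microsomal triglyceride transfer protein and its partner protein disulfide isomerase. The particle gains more lipid and surface apolipoproteins, leaves the ER in large coated vesicles, passes the Golgi and is released towards the lacteal, the lymph vessel of the villus. Apoa1 encodes apolipoprotein A-I, a surface protein of newly made chylomicrons and the main protein of high density lipoprotein. Tm6sf2 encodes a membrane protein of the ER that is needed for full lipid loading of particles with apolipoprotein B, and Pla2g12b a secretory protein of the phospholipase A2 family without known catalytic activity that acts at the same step. Surf4 encodes a cargo receptor that takes lipoproteins from the ER to the Golgi. Creb3l3 encodes CREBH, a transcription factor anchored in the ER membrane that is cut free in the Golgi and turns on lipoprotein genes.

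The 5 genes lie apart from each other in the mouse genome (GRCm38, 1-based, the same bounds in the deposited table and in GENCODE M21). Apoa1 (ENSMUSG00000032083) lies at chr9:46228580-46230466 on the plus strand, and Tm6sf2 (ENSMUSG00000036151) at chr8:70072924-70080066 on the plus strand. Pla2g12b (ENSMUSG00000009646) lies at chr10:59403660-59421976 on the plus strand. Creb3l3 (ENSMUSG00000035041) lies on the same chromosome at chr10:81084324-81098874 on the minus strand. Surf4 (ENSMUSG00000014867) lies at chr2:26920040-26933928 on the minus strand, and its end overlaps Surf2 on the plus strand. No source states whether the authors counted by strand, so reads from that overlap may belong to either gene.

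The sequence just before the annotated start is shown for Apoa1, Pla2g12b and Creb3l3, the members for which one could be printed. Of the 5 members 4 had a promoter entry. Tm6sf2 had no entry, and that of Surf4 left no base outside the deposited gene bounds. The levels of the 3 genes shown had a positive r with each other across the flox libraries (below). That held for 9 of all 10 flox pairs, and no r among these 3 genes passed the threshold after adjustment. The sequences are from RefSeq (GRCm38.p6), read 5′ to 3′ on the gene's own strand and ended at the deposited gene bound, so that no transcribed base is shown. They cover chr9:46228380-46228579 (plus strand), chr10:59403435-59403659 (plus strand) and chr10:81098875-81099122 (minus strand).
Apoa1: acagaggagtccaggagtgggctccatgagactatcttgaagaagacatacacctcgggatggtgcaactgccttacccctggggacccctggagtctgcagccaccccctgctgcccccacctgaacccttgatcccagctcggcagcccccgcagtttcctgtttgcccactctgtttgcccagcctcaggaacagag
Pla2g12b: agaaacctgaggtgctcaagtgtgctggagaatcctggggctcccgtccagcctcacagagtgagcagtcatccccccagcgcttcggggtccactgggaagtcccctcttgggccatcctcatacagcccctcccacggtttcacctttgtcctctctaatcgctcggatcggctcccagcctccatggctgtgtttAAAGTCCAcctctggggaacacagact
Creb3l3: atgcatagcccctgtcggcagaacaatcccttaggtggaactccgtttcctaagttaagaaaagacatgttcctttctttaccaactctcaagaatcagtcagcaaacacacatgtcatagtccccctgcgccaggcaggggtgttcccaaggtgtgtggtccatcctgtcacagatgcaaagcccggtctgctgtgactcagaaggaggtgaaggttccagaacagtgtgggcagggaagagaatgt
Capitals mark the only match to any of 8 short motifs searched on both strands. It is AAAGTCCA, a core of sites bound by HNF4 factors, in the Pla2g12b window. Of 32851 RefSeq promoter windows cut to the same length and place, 0.877% held it. Among the other motifs, nuclear receptors bind AGGTCA, and GGGCGG is known as the GC box. The core of sites for CREB family factors, such as CREB3L3 itself, was searched as TGACG. For GATA factors the letters were AGATAA, or in another form TGATAA. For CDX2 the search used TTTATNG, where N is any base, and the TATA box was searched as TATAAA. In the 248-base Creb3l3 window each of these was absent, while they were held by between 7.9% (TGATAA) and 32.5% (GGGCGG) of all windows of that length. In the 200-base Apoa1 window none of the 8 was found either. A match of this kind is a match of letters only, and its absence from these windows says nothing of a factor's binding elsewhere.

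The deposited values were normalised counts, reads divided by 1 size factor per library, and each library had between 3592468 and 5316273 reads in the genes of the table. Ephb4, the deleted gene, was lower in every KO library (23.3 to 84.7 normalised counts) than in any flox library (102.7 to 353.8), a log2 difference of -2.51 (exact permutation p = 8.74e-05, two-sided, the smallest that 11440 splits allow). Of 15 markers of mature enterocytes 8 were listed, Fabp1, Rbp2 and Vil1 among them, all 8 as lower in KO. Their summed level ran from 400908 to 593688 in flox (median 495509) and from 288072 to 429034 in KO (median 349149). So the libraries of both groups carried enterocyte transcripts, which does not measure how pure the epithelium was. Of 23 pancreatic acinar genes 20 were listed, and their sum was 6737 to 140584 in 5 flox libraries (replicates 4, 6, 7, 9 and 10) against at most 459 in the other 4 flox and 1614 in the KO libraries. Of 18 proliferation genes 11 were listed, all 11 as higher in KO. Their summed level was 767 to 2514 in flox and 2035 to 4381 in KO. The table listed 14.8% of the 16488 genes over which the authors adjusted, 7.81% as lower and 1150 genes as higher. It held 10 of 55 markers for immune, stromal and endothelial cells, each of them higher in KO. Their summed level was 684 to 1784 in flox and 799 to 3096 in KO, and only Lum, a stromal proteoglycan, was at 0 in some libraries (6 of 16). The non-epithelial score, the mean log2 level of these 10 genes, was 4.99 ± 0.412 in flox (SD, n = 9) and 6.15 ± 0.687 in KO (SD, n = 7). These 10 genes are in the table because they differed between these same groups. The listing did not fix their direction, but a score of genes so selected is no independent measure of a difference. The part of the score in the differences below was not tested beyond the fit with this score as a covariate. In bulk libraries fewer cells of a type and less RNA per cell cannot be told apart.

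All 5 genes were lower in KO in the authors' deposited table. The table held only genes, of either direction, whose adjusted p was under 0.05 on these same libraries. That all 5 passed was thus fixed by the listing, though their direction was not, and nothing is read from their number. Of the 16488 genes over which the authors adjusted, 14.8% were listed and 7.81% were listed as lower. The median log2 fold change of the 5 genes was -0.41 in the authors' deposited table, and that of all 1288 lower genes was -0.37. All 5 genes were abundant, and of the 768 genes of the table whose mean reached 1000 normalised counts, 92.7% were lower.

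Apoa1 was the most abundant listed transcript in all 16 libraries, with 3.00% to 6.39% of the counts in the listed genes. Its lowest, median and highest flox libraries held 149049, 217193 and 340489 normalised counts, and its KO libraries 98985, 159395 and 207540. The mean was 222598 ± 58211 in flox (SD, n = 9) and 158476 ± 32732 in KO (SD, n = 7), 1.40-fold lower. The groups overlapped widely: flox replicate 7, at the low end, was below 6 of the 7 KO libraries, while all 7 KO libraries were below the flox median. For Apoa1 the log2 fold change in the authors' deposited table was -0.49 (adjusted p = 0.0238). Among the 5 genes Apoa1 varied most within flox, with a coefficient of variation of 26.2%.

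Both ER lipid loading genes were lower in KO. Tm6sf2 held 8709, 9441 and 10491 normalised counts in its lowest, median and highest flox libraries, and 5520, 7936 and 9368 in KO. The flox libraries lay close together, with a coefficient of variation of 6.86%, against 16.9% in KO, and 5 of the 7 KO libraries were below the lowest flox library. Its KO mean was 0.832 of its flox mean, at 7843 ± 1328 (SD, n = 7) against 9423 ± 647 (SD, n = 9). Its log2 fold change in the authors' deposited table was -0.26 (adjusted p = 0.0438, near that table's largest of 0.0497). Pla2g12b, the least abundant of the 5, held 1409, 1849 and 2495 in flox and 1033, 1469 and 1638 in KO. Here 7 of the 9 flox libraries were above the highest KO library. Its mean was 1.33-fold lower, at 1418 ± 230 (SD, n = 7) against 1882 ± 328 (SD, n = 9), and the authors' deposited table gave -0.41 with an adjusted p of 0.0134.

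Surf4, the ER export receptor, held 13718, 16024 and 18370 normalised counts in its lowest, median and highest flox libraries and 10648, 13659 and 14929 in KO. In 4 of the 7 KO libraries it was below the lowest flox library. Its mean was 13009 ± 1758 in KO (SD, n = 7) and 15645 ± 1607 in flox (SD, n = 9), a ratio of 0.832. In the authors' deposited table its log2 fold change was -0.27 and its adjusted p 0.0318.

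Creb3l3, the transcription factor of the set, held 15497, 18317 and 23192 normalised counts in its lowest, median and highest flox libraries and 10071, 12515 and 18377 in KO. Of the 7 KO libraries 6 were below the lowest flox library, and KO replicate 8, at 18377, was just above the flox median. Its mean was 1.38-fold lower, at 13508 ± 2685 (SD, n = 7) against 18672 ± 2449 (SD, n = 9). Its adjusted p in the authors' deposited table, 0.00219, was the smallest of the 5, with a log2 fold change of -0.47. None of the 5 genes had groups that did not overlap. Of the 2438 listed genes, 5.33% were lower in KO with no overlap.

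**Figure D1:**
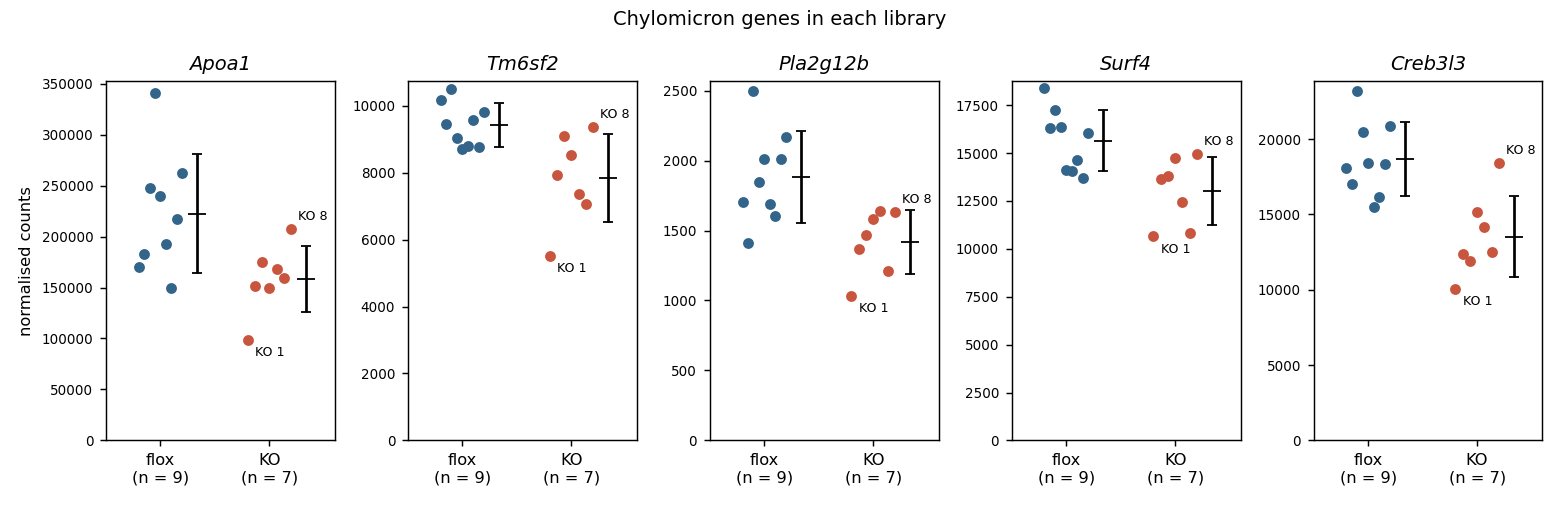
Normalised counts (vertical axis, linear, from 0) of each gene in the 9 flox and 7 KO libraries; each point is a library, and the bar beside the points is the mean with its SD. KO 1 is the lowest of all 16 libraries in each panel, and KO 8 lies within the flox range in each.

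Per kilobase of gene length, the order of the levels in flox was Apoa1 (180096 ± 47096 normalised counts per kilobase), Creb3l3 (6191 ± 812), Tm6sf2 (4957 ± 340), Surf4 (4768 ± 490) and Pla2g12b (1592 ± 278; SD, n = 9 for each). Tm6sf2 and Surf4 differed by less than their spread. In KO the order was the same, from 128217 ± 26483 for Apoa1 to 1199 ± 194 for Pla2g12b. Between them Creb3l3 (4479 ± 890), Tm6sf2 (4126 ± 699) and Surf4 (3965 ± 536; SD, n = 7 for each) differed by less than their spread.

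The KO libraries were not alike. KO replicate 1 was the lowest of all 16 libraries for all 5 genes, between 0.55 (Surf4) and 1.13 (Apoa1) below the flox mean on the log2 scale. Its position was shared by much of the table. It had the largest size factor (1.38), the lowest summed normalised counts of the listed genes (3298737) and the lowest mean log2 level of the enterocyte markers (14.4), and it was also the lowest library for P4hb, Sec16a and Sec31a. In recovered reads, before scaling, it was the lowest library for Tm6sf2 alone of the 5. KO replicate 8 was the highest KO library for Apoa1, Tm6sf2, Surf4 and Creb3l3, and its 5 values lay within 0.19 of the flox mean. The non-epithelial score was highest in KO replicate 1 (7.14) and next highest in KO replicate 8 (6.53). KO replicate 2, with the lowest score of the KO group (5.13), was between 0.19 (Surf4) and 0.58 (Creb3l3) below the flox mean for the 5 genes. The relation of the score to the 5 genes from library to library was not tested. Among flox libraries, replicate 3 was the highest of all 16 for Tm6sf2, Pla2g12b and Creb3l3, and replicate 4 for Apoa1.

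**Figure D2:**
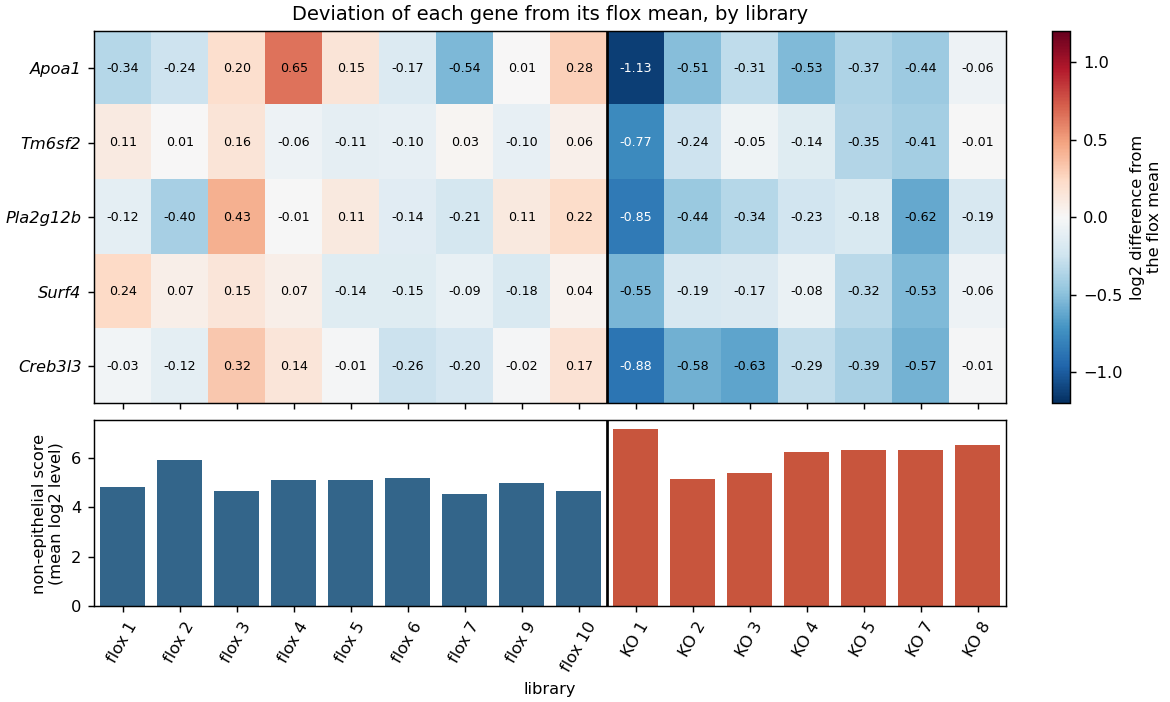
Upper panel: log2 difference of each gene (rows) from its own flox mean in each of the 16 libraries (columns), red above and blue below. Lower panel: the non-epithelial score of the same libraries (mean log2 level of 10 marker genes). KO 1 has the deepest blue in every row and the highest score, and KO 8 is near white with the next highest score.

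An own fit with limma on log2(normalised count + 1) gave smaller margins than the authors' test. Creb3l3 (-0.48 ± 0.11, SE; limma adjusted p = 0.0183) and Pla2g12b (-0.41 ± 0.12; limma adjusted p = 0.0406) passed at an adjusted p under 0.05. Apoa1 (-0.48 ± 0.16), Surf4 (-0.27 ± 0.09) and Tm6sf2 (-0.28 ± 0.09) had limma adjusted p-values of 0.0772, 0.0701 and 0.0720. So 2 of the 5 passed, beside 4.97% of the 16488 genes that passed as lower in this fit and 7.70% that passed in either direction. Genes outside the table could not pass this fit. Among the 2339 genes of the table that were tested, 820 passed as lower and 1269 in either direction, so 2 of 5 is near the table's own share and is no result about the members. Creb3l3 passed with each of the 16 libraries left out in turn (limma adjusted p from 0.00774 to 0.0438). Pla2g12b lost its call without flox replicate 3, 4, 5, 9 or 10 or KO replicate 1, 2 or 7, with a limma adjusted p of up to 0.0955. Apoa1 gained a call without flox replicate 7 (limma adjusted p = 0.0459) and Tm6sf2 without KO replicate 8 (0.0446).

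The size of the differences depended on the scaling and on the covariate used. TMM scaling was computed over the listed genes only, all of them selected as differing between the groups. It shifted the log2 differences of the table by a median of 0.14. Under it the 5 differences ran from -0.13 (Surf4) to -0.34 (Creb3l3) and only Creb3l3 passed (limma adjusted p = 0.0482). Quantile normalisation, which makes the distribution of the listed genes the same in every library, turned Tm6sf2 to 0.09 and Surf4 to 0.15 and left Pla2g12b at -0.09 and Creb3l3 at -0.12. It sets Apoa1 to 0.00 by construction, because Apoa1 was the top listed gene in every library. When the non-epithelial score entered the fit, the difference was -0.43 ± 0.17 for Creb3l3, -0.18 ± 0.16 for Pla2g12b and -0.07 ± 0.13 for Tm6sf2 (SE). No member passed (limma adjusted p of 1.0 for each, with 1 unadjusted p under 0.05), and only 7 genes of the table did. The score's genes were selected on the same contrast and follow the groups, so this fit cannot tell the score and the genotype apart.

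Leaving out the 5 flox libraries with pancreatic transcripts kept the size of the differences. Against the other 4 flox libraries the KO mean was 1.42-fold lower for Creb3l3, 1.34-fold for Pla2g12b, 1.33-fold for Apoa1, 1.27-fold for Surf4 and 1.24-fold for Tm6sf2. In limma none of the 5 passed in this smaller comparison, with adjusted p-values from 0.13 for Creb3l3 to 0.402 for Apoa1, and all 5 had an unadjusted p under 0.05. Among flox libraries the mean of Apoa1 was 232477 ± 73065 with pancreatic transcripts (SD, n = 5) and 210249 ± 39396 without (SD, n = 4). The KO group held no library with such transcripts, so within that group the split gives no value.

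**Figure D3:**
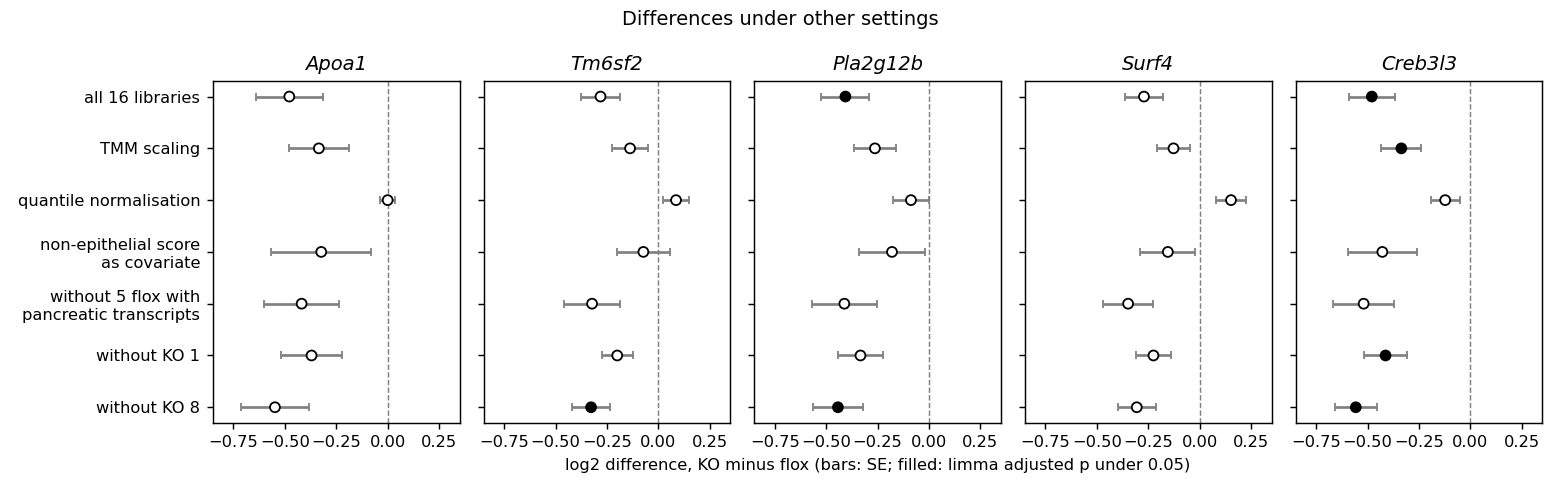
log2 difference of KO minus flox for each gene (horizontal axis) with all 16 libraries and under 6 other settings (rows); bars are the SE and filled points passed limma at an adjusted p under 0.05. All points lie below 0 except those of Apoa1, Tm6sf2 and Surf4 under quantile normalisation.

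Ratios within a library cancel its scaling factor, and were used to ask whether some of the 5 genes differed more than others. Of 10 pairs none passed a two-sided exact permutation test after adjustment over the 10 pairs (smallest adjusted p = 0.213), and 2 had an unadjusted p under 0.05. Both set Creb3l3 against a gene with a smaller difference. The log2 ratio of Surf4 to Creb3l3 was 0.21 higher in KO, at -0.04 ± 0.19 (SD, n = 7) against -0.25 ± 0.17 (SD, n = 9), with an unadjusted exact p of 0.0404, and 6 of 7 KO libraries were above the flox mean. That of Tm6sf2 to Creb3l3 was 0.20 higher in KO, in 7 of 7 libraries (unadjusted exact p = 0.0426). The ratio of Apoa1 to Creb3l3, 3.54 ± 0.26 in flox (SD, n = 9) and 3.55 ± 0.20 in KO (SD, n = 7), differed by 0.00.

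Set against the mean log2 level of the 8 listed mature enterocyte markers in the same library, the members gave the following values. The KO minus flox difference of that log2 ratio was 0.04 for Apoa1 and 0.04 for Creb3l3, each less than the SD within either group. It was 0.11 for Pla2g12b, 0.24 for Tm6sf2 and 0.25 for Surf4. The ratio of Surf4 was -1.26 ± 0.17 in flox (SD, n = 9) and -1.01 ± 0.11 in KO (SD, n = 7), that is, the fitted difference of Surf4 was smaller than that of these markers. The gaps between members here are those of the pair ratios, none of which passed after adjustment. This comparison was chosen after the data were seen. Its 8 markers had been selected by the listing as differing, and all were lower, so it is given as a description without a test.

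Covariation inside a group does not use the difference between the groups. Within flox, Pla2g12b and Creb3l3 went together (Pearson r = 0.82, Spearman rho = 0.88, n = 9), as did Tm6sf2 and Surf4 (r = 0.82, rho = 0.78) and Apoa1 and Creb3l3 (r = 0.73, rho = 0.82). Their exact permutation p-values for r were 0.00777, 0.00926 and 0.0261 before adjustment and 0.058 for each after adjustment over 20 correlations (10 pairs in 2 groups). Without the 2 libraries farthest from the median of the first gene, these r were 0.75, 0.78 and 0.72. For Apoa1 and Pla2g12b r was 0.60 (rho = 0.73, exact permutation p for r = 0.0848, adjusted 0.130). Apoa1 and Tm6sf2 (r = -0.15), Apoa1 and Surf4 (0.09) and Pla2g12b and Surf4 (0.06) showed little relation in flox. Whether the r of these pairs differ from each other was not tested. With TMM scaling the flox r was 0.79 for Tm6sf2 and Surf4, 0.73 for Pla2g12b and Creb3l3, 0.53 for Apoa1 and Creb3l3 (exact permutation p = 0.136) and 0.41 for Apoa1 and Pla2g12b. That of Apoa1 and Tm6sf2 was then -0.74. The splits of flox by pancreatic transcripts, 5 and 4 libraries, were too small for a correlation of their own.

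Within KO all 10 pairs had a positive r, from 0.65 to 0.89 (n = 7). Tm6sf2 and Surf4 was the 1 pair of the 20 whose r passed after adjustment (r = 0.89, exact permutation p = 0.00159, adjusted p = 0.0317; rho = 0.96, adjusted p = 0.0308), and r was 0.84 without KO replicates 1 and 8. By rho a second pair passed, Pla2g12b and Creb3l3 in flox (adjusted exact permutation p = 0.0308). Most other relations in KO rested on 2 libraries, since without the 2 farthest from the median the r of the 10 pairs ran from -0.42 to 0.84. The r of Apoa1 and Creb3l3 was 0.78 (rho = 0.43) with all 7 KO libraries and -0.42 without replicates 1 and 8. No pair passed with TMM scaling, where 9 of the 20 had an unadjusted exact p under 0.05.

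**Figure D4:**
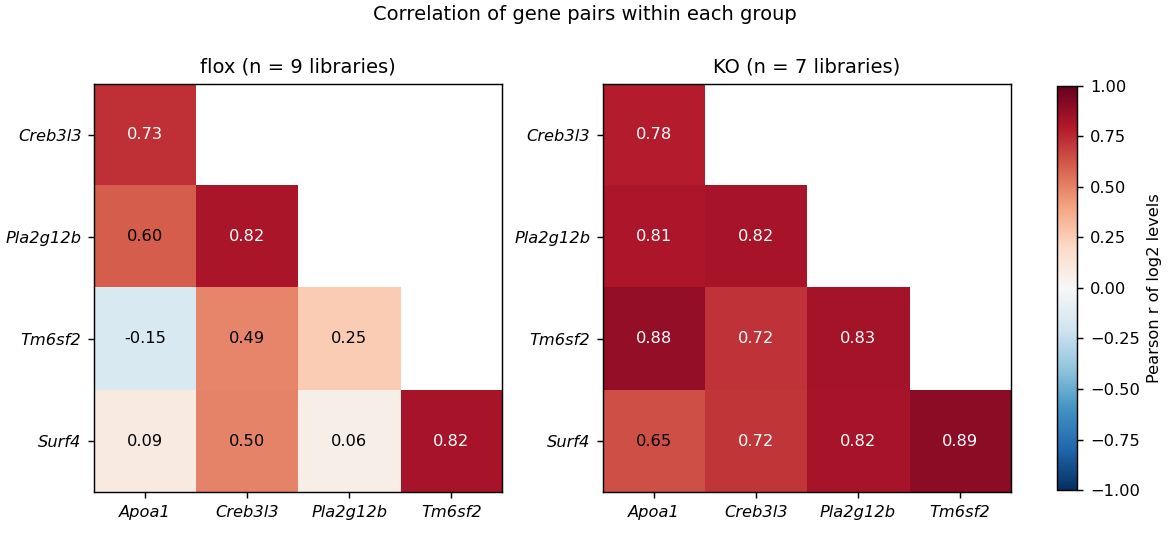
Pearson r of the log2 levels of each gene pair within the 9 flox libraries (left) and the 7 KO libraries (right); red is positive and blue negative. In flox Creb3l3 with Pla2g12b and Tm6sf2 with Surf4 reach 0.82, while in KO all 10 values are 0.65 or higher.

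The genes most like each member were found among 2338 other listed genes by the correlation of deviations from the group means over 16 libraries. For Creb3l3 they were Treh, the brush border trehalase (r = 0.88), Por, the reductase that serves cytochrome P450 enzymes (0.88), and Dok4, a docking protein (0.87). For Apoa1 they included Map2k2, a MAP kinase kinase (0.93), and Tmem37 (0.91). Pla2g12b was most like Cldn7, a tight junction claudin (0.89), Rhebl1 (0.88) and Ergic3, a protein of the compartment between ER and Golgi (0.85). Tm6sf2 was most like Wbp2 (0.89), 4833439L19Rik (0.88) and Nat8f4 (0.88), and Surf4 most like AU040320 (0.90), C2cd2l (0.87) and Mcu, the mitochondrial calcium uniporter (0.86). All of these genes were listed as lower. The libraries share their scaling factors and KO replicate 1, so the values describe these 16 libraries only.

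Beyond the 5 members, 7 of 59 other genes of the chylomicron pathway were listed, all as lower in KO, which is 11.9%, beside the 7.81% of all genes listed as lower. Their median log2 fold change in the authors' deposited table was -0.33. All 7 had a mean of at least 1000 normalised counts, a level at which 92.7% of the listed genes were lower. The 7.81% covers genes of any level, so the shares are not alike and nothing is read from them. In the list of 10 genes for lipid loading in the ER, the 3 genes P4hb, Cideb and Lpcat3 were listed besides the members Tm6sf2 and Pla2g12b. Both members were chosen from the table, so their part in such a count was fixed and nothing is read from it. P4hb encodes protein disulfide isomerase, the partner of the microsomal triglyceride transfer protein, and was 1.31-fold lower, at 57224 ± 8247 (SD, n = 7) against 74992 ± 7328 (SD, n = 9). Cideb, which promotes lipidation of lipoproteins, had the largest difference of the 12 listed pathway genes. It was the only one of them whose groups did not overlap, with 735 to 1028 normalised counts in KO and 1147 to 1836 in flox. Of the 2438 listed genes 5.33% were lower with no overlap, so this is no result about the pathway. Lpcat3, an acyltransferase that remodels membrane phospholipids, was 1.26-fold lower.

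At ER exit, Sec16a, a scaffold of the exit sites, and Sec31a, a subunit of the outer COPII coat, were 1.21-fold and 1.18-fold lower. They were the only genes listed besides the member Surf4 in that list of 24 genes. Among 16 regulators Cdx2, a homeobox factor of intestinal identity, was 1.24-fold lower and Nr1h3, the oxysterol receptor LXR alpha, 1.28-fold lower, beside Creb3l3. In limma 5 of the 7 passed, all but Sec16a and Sec31a (limma adjusted p = 0.0679 and 0.0802). Of the 1278 tested genes of the table with a difference below 0, 820 passed. So 5 of 7 is near the table's own share and is no result about the pathway. Under quantile normalisation P4hb, Lpcat3, Sec16a and Sec31a changed sign. Of 9 apolipoprotein genes only Apoa1 was listed, and of 5 genes of high density lipoprotein assembly none was. Apob, Mttp, Apoa4 and Sar1b were not in the table, so they either missed the authors' threshold or were not tested. Apoc3, Apoa4 and Apoa5, which lie 2467, 10230 and 38167 bases from Apoa1 on chromosome 9, were not listed. Of 5 known targets of CREB3L3 (Apoa4, Apoa5, Apoc2, Fgf21 and Cidec) only Cidec, a lipid droplet protein, was listed, 1.33-fold lower, at 1954 ± 337 (SD, n = 7) against 2602 ± 443 (SD, n = 9).

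**Figure D5:**
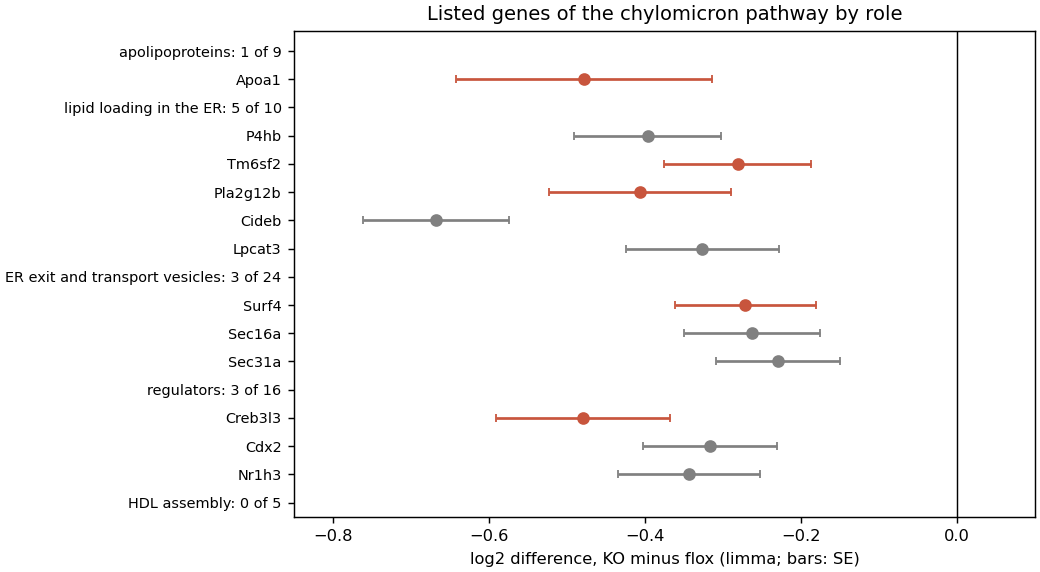
log2 difference of KO minus flox from limma (horizontal axis; bars are the SE) for the 12 listed genes of the pathway, grouped by role with the number listed of the number in the list; red points are the 5 members and grey points the other 7. All 12 points lie below 0, and Cideb is farthest from it. The number listed counts the members, which were chosen from the table.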

How the data were processed

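RNA selected on poly-T beads went into 16 NEBNext Ultra libraries, per the labels' protocols. The tools were DESeq2 1.20.0, HISAT2 2.0.5 and featureCounts 1.5.0-p3 on GRCm38 (mm10), according to the submitters' processing notes, with no settings stated. Each deposited signal value is a count of reads over the library's size factor (0.878 to 1.38), and 100% of values gave whole reads within 0.0001. The authors also deposited group means, a log2 fold change and a p-value with its adjusted value. From the p-values, the adjustment ran over 16488 genes. Total depth is unknown, since other genes were not used here.

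Members, lists and tests were chosen with earlier results of these data known. limma 3.58.1 (trend, robust) was run on log2(normalised count + 1) of genes whose mean reached 10, with Benjamini-Hochberg adjustment over 16488 genes in which limma's p of an unlisted gene was set to 1; it serves as a check of genes already selected. edgeR 4.0.16 and DESeq2 1.42.0 were run on recovered reads. All fits were checked on simulated data. Named genes were the 5 members, Ephb4, the listed genes of 5 fixed pathway lists (64 genes) and of the CREB3L3 target list, and the 3 genes most like each member, of which 1 is not reported here; neighbouring genes were added afterwards. A list of 12 immediate early and heat shock genes had 5 listed, 4 lower and 1 higher; of 18 proliferation genes 11 were higher and of 10 epithelial genes 3 lower. The labels do not say whether each library is a separate mouse, so p-values measure the spread between libraries.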

Additional observations from a re-analysis of the deposited data

Results flagged for a closer look

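Among 30 sets of values (14 genes and the non-epithelial score in each group), 4 had 1 library far from the others by Dixon's criterion, which chance alone meets in about 1 of 20 sets. Ephb4 in KO replicate 1 was 84.7 normalised counts, above all other KO libraries. Sec31a in flox replicate 1 was 12390, above all other flox libraries. Cdx2 in flox replicate 3 was 3549, above all other flox libraries, and the same library was highest for Tm6sf2, Pla2g12b and Creb3l3. The non-epithelial score of flox replicate 2 was 5.89, above all other flox libraries. None of the 5 members had such a library in either group.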

How the results depend on the processing

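The 5 differences kept their direction in all 30 alternatives for Pla2g12b and Creb3l3 and in 29 for Apoa1, Tm6sf2 and Surf4. Under quantile normalisation Tm6sf2 was at 0.0859, Surf4 at 0.15, P4hb at 0.0474, Lpcat3 at 0.0143, Sec16a at 0.0709 and Sec31a at 0.13, and Apoa1 at 0; this method gives all libraries the same distribution over the listed genes. With all libraries limma called 2 members, 7 of the 12 listed pathway genes and 1269 listed genes. Of the last, 820 were lower and 449 higher, against 189 lower and 724 higher with TMM. These counts became 1, 2 and 913 with TMM; 0, 1 and 357 with quantile normalisation; 0, 0 and 7 with the non-epithelial covariate; and 0, 0 and 11 without the flox libraries with pancreatic transcripts (limma unadjusted p under 0.05 for 0, 1 and 5 members in these last 3, and for 3 and 12 pathway genes in the last 2). DESeq2 on recovered reads called 5, 12 and 2112, near the authors' own selection, and edgeR 2, 7 and 1315. Without KO replicates 1 and 3, an alternative chosen after seeing the data, edgeR called 0, 1 and 374 (5 members unadjusted) and DESeq2 2, 5 and 1157. With 1 library left out the counts ran from 1 to 3, from 2 to 7 and from 518 to 1462, the lowest pathway and table counts without KO replicate 7. The pathway count was 3 without flox replicate 3 or KO replicate 1 and 4 without flox replicate 5 or 10, and the table count was 615, 839, 646, 646 and 622 without flox replicate 3, 4 or 10 or KO replicate 1 or 5. Those for ratio pairs stayed at 0, and the Ephb4 difference ran from -2.73 to -2.40. Whether the 6 replicate numbers that occur in both groups pair the libraries is not known. Same-numbered libraries deviated with correlations from -0.43 to 0.37, over 0.1 for 3 of the 6, which cannot settle it. A replicate block over these numbers gave 0, 0 and 9 limma calls (5 members and 12 pathway genes unadjusted), and the same 12 libraries without a block gave 1, 4 and 355. Of the 20 correlations 1 passed, 0 did so with TMM, and 0 without the 2 farthest libraries. The cause of these changes was not tested.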

Other observations

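Among 44 protein-coding genes within 100000 bases of the 5 members, 8 were listed, beside 14.8% of the 16488 genes over which the authors adjusted. Near Creb3l3 3 of 12 were listed, all lower in the authors' deposited table. They were Map2k2 (log2 fold change -0.38, 7041 bases away), Zbtb7a (-0.42) and Pias4 (-0.38). Map2k2 was also the listed gene most like Apoa1, which lies on another chromosome. Near Surf4 Med22 (-0.29) and Cacfd1 (-0.31) were listed, and the mitochondrial calcium uniporter gene Mcu (-0.28), 25008 bases from Pla2g12b, was among the 3 genes most like Surf4. Near Tm6sf2 Gatad2a was lower (-0.22) and Mef2b higher (2.59). None of the 7 neighbours of Apoa1 was listed. These genes were looked up after the data were seen, and no test was made of whether neighbours are listed more often than other genes.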
